A study of Mus musculus with 2 samples.

Results

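Noncoding genes whose promoter carried a peak of NRF1, nuclear respiratory factor 1, were examined in mouse skeletal muscle. The genes were chosen by the position of the peak alone: a gene with a known RefSeq noncoding transcript and no known coding transcript was taken when the summit of a peak lay 1000 bp before to 100 bp after one of its starts. By this rule 199 of 5180 noncoding genes were members, a background share of 3.84% (Wilson 95% interval 3.35 to 4.4%), whereas 2804 of 21000 protein-coding genes, or 13.4% (12.9 to 13.8%), had a summit in a promoter of the same size. The members were served by 195 of the 3226 peaks in the list. Of these, 144 also lay in a protein-coding promoter and are called shared, and 51 lay in a noncoding promoter only. Another 2408 peaks lay in a protein-coding promoter only and are used for comparison. Since peak position made the list, these counts and the enrichment of the peaks are a description and were not tested.

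The peaks came from chromatin immunoprecipitation followed by sequencing (ChIP-seq), in which DNA occupied by a protein is recovered with an antibody to that protein. Both of the 2 libraries were labelled as skeletal muscle of wild-type mice with an NRF1 antibody, and they formed 1 group. The mice of the study were kept on a C57Bl/6J background, chromatin came from nuclei of whole muscle, and no age, treatment or number of animals was given in the labels. A single list of peaks was deposited and its peak names carry the title of replicate 1. The reporting summary of the study lists replicate 2 as input DNA, against its label, and no separate values of it were used, so no value below has a replicate error. Depth is unknown from a list of peaks. Expression markers of muscle cannot be checked in such a list, and occupancy in myofibre nuclei and in nuclei of other cells of the muscle cannot be told apart.

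NRF1 is a transcription factor that binds as a dimer to a palindrome in unmethylated, CpG-rich promoters and is best known for nuclear genes of mitochondrial respiration. Many such promoters are bidirectional: they fire a messenger RNA one way and a long noncoding RNA (lncRNA) the other way from starts placed head to head. Other noncoding genes are embedded in a host, as most small nucleolar RNAs (snoRNAs), which guide the modification of ribosomal and spliceosomal RNA, and many microRNAs, which repress messenger RNAs through a short seed, are cut from introns.

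The sequences that follow show the strongest peaks in a noncoding promoter only, because no known protein-coding start had them within its window. Each is 50 bases of the GRCm38.p6 (mm10) assembly from RefSeq around the best copy of the motif, on the strand of the noncoding gene and read 5′ to 3′. Capitals mark a copy of the palindrome GCGCATGCGC with at most 1 mismatch.
B330016D10Rik, chr4:141545977-141546026 (+): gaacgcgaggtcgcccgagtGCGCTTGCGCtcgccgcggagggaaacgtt
Gm38882, chr6:117879501-117879550 (+): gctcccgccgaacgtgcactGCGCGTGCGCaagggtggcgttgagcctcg
Gm14966, chr19:6364515-6364564 (-): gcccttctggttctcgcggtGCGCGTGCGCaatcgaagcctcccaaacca
5730405O15Rik, chrX:13041722-13041771 (+): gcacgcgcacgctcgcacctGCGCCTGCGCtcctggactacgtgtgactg
5830454E08Rik, chr9:120577201-120577250 (+): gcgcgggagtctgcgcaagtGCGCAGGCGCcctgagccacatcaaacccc
Snhg3, chr4:132353687-132353736 (-): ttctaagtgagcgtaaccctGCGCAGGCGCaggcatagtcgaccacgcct
Zfp652os, chr11:95712583-95712632 (-): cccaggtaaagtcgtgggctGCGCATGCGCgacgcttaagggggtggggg
Gm20337, chr12:80946127-80946177 (-): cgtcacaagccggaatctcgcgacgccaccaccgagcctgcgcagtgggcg
The last sequence, 51 bases around the summit of the Gm20337 peak, has no such copy and is shown for contrast. Zfp652os is the only one of the 8 in which the palindrome was perfect.

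For head-to-head pairs the stretch between the starts is shown, because the summit lay there in 85 of 112 such pairs. The bases between the starts, both start bases left out, are given for the strongest pairs that were short enough, and for 3 pairs with a well-known partner that were chosen after their values were seen: Slc3a2 (an amino acid transporter subunit), Cycs (cytochrome c) and Fmr1 (the gene of fragile X syndrome). The strand is again that of the noncoding gene, so the protein-coding gene lies to the left and runs leftward.
4930480K23Rik and Chmp7, chr14:69732571-69732783 (+): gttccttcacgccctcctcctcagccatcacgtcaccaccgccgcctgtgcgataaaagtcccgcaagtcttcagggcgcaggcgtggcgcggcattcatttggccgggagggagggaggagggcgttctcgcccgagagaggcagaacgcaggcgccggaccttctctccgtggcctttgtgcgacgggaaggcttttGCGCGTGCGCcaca
Gm15627 and Castor2, chr5:134099642-134099747 (-): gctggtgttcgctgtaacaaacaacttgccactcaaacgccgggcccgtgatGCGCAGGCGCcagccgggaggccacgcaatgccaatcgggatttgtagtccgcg
9330133O14Rik and Mvd, chr8:122443423-122443655 (+): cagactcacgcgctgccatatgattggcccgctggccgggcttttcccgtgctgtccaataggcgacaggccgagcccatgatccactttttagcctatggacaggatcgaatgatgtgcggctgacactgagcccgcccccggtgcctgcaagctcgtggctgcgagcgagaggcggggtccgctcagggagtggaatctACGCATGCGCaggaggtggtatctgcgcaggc
Gm4890 and Mmaa, chr8:79294962-79295077 (+): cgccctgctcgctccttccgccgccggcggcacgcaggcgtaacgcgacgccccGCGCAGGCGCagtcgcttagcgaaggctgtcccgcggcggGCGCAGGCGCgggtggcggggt
Snhg1 and Slc3a2, chr19:8723370-8723486 (+): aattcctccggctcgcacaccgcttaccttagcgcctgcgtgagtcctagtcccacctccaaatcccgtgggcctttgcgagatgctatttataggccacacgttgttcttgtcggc
5430402O13Rik and Cycs, chr6:50566570-50566642 (+): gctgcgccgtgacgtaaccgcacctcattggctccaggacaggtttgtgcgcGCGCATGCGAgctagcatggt
Fmr1os and Fmr1, chrX:68678400-68678540 (-): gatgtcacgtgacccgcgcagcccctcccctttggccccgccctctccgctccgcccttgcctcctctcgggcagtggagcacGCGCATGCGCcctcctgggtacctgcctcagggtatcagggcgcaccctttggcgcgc
The Gm4890 and Mmaa starts enclosed 2 copies of the motif. The copy between Fmr1os and Fmr1 was a perfect palindrome, and none lay between Snhg1 and Slc3a2.

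The members were mostly lncRNA genes. RefSeq classes 167 of them as lncRNA, 14 as microRNA, 9 as snoRNA and 6 as transcribed pseudogenes, and the other members were Scarna17 (a guide RNA of Cajal bodies), Rmrp (the RNA of the RNA-processing enzyme RNase MRP) and Rn7s1 (an RNA of the signal recognition particle). Per class, 5.03% of 3318 lncRNA genes had a promoter peak (interval 4.34 to 5.83%), against 7.14% of 126 snoRNA genes (3.8 to 13.0%), 1.43% of 421 transcribed pseudogenes (0.655 to 3.07%) and 1.14% of 1228 microRNA genes (0.68 to 1.9%). The intervals of the lncRNA and snoRNA shares overlapped, and that of microRNA lay under both. The starts used for microRNA and snoRNA genes were those of the annotated short RNAs, which can be cut from a longer transcript. Their shares are therefore not shares of transcription starts with a peak and cannot be ranked against that of lncRNA genes. These intervals cover counting error over genes only, and genes that share a peak are not independent. The members lay on 20 chromosomes, with 4 of them on X.

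**Figure D1:**
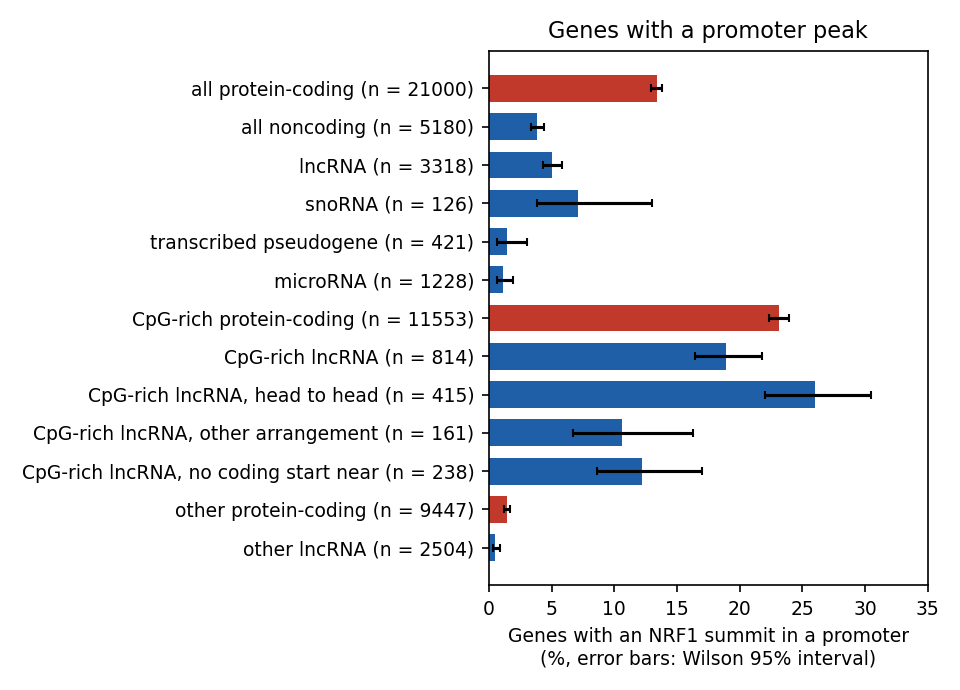
Share of genes with an NRF1 summit in a promoter (x axis, percent) for each class of gene (y axis, with the number of genes), protein-coding in red and noncoding in blue, with Wilson 95% intervals. CpG-rich lncRNA genes head to head with a protein-coding start reached 26.0%, and lncRNA genes without a CpG-rich start stayed at 0.519%. For microRNA and snoRNA genes the promoter was placed at the annotated short RNA, so their bars cannot be ranked against those of lncRNA genes.

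Most member promoters were also protein-coding promoters. A shared peak served 145 of the 199 members, or 72.9% (66.3 to 78.6%), and 54 members had noncoding-only peaks alone. Protein-coding promoters held most peaks of the whole list too: of 3226 peaks, 2408 lay in a protein-coding promoter only and 144 in both kinds. The share of members was not tested against the whole list. Among lncRNA members 121 had a shared peak and 46 did not, and among the 24 small RNA members the numbers were 18 and 6. The partners were 147 protein-coding genes.

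Most pairs had 1 layout. Of 122 pairs of an lncRNA gene with a shared peak and its nearest protein-coding start, 112 (91.8%) were head to head, 5 overlapped on opposite strands and 5 ran on the same strand. Among all lncRNA genes with a protein-coding start within 1000 bp, with or without a peak, 560 were head to head and 258 in another arrangement. The window reaches farther upstream than downstream of each start, so the rule itself favours head-to-head pairs and the share was not tested. The head-to-head starts were a median of 139 bp apart, with quartiles of 89 and 251.2 bp and extremes of 0 and 1141 bp, and 89 pairs were at most 300 bp apart. The summit lay between both starts in 85 pairs (75.9%). A shared summit can lie at most 100 bp after either start, so the rule itself keeps it in or near the gap. This share was therefore not tested. The median position of the summit was 73 bp upstream of the noncoding start (-73 bp, quartiles -127.5 and -35.5) and 65 bp upstream of the protein-coding start (-65 bp, quartiles -147 and -17.75). It was nearer the protein-coding start in 63 pairs, nearer the noncoding start in 48 and equally far from both in 1. A copy of the motif lay within 100 bp of the summit in 73 of the pairs, and between the starts in 51. Of all shared peaks 67.4% held a copy within 100 bp of the summit.

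**Figure D2:**
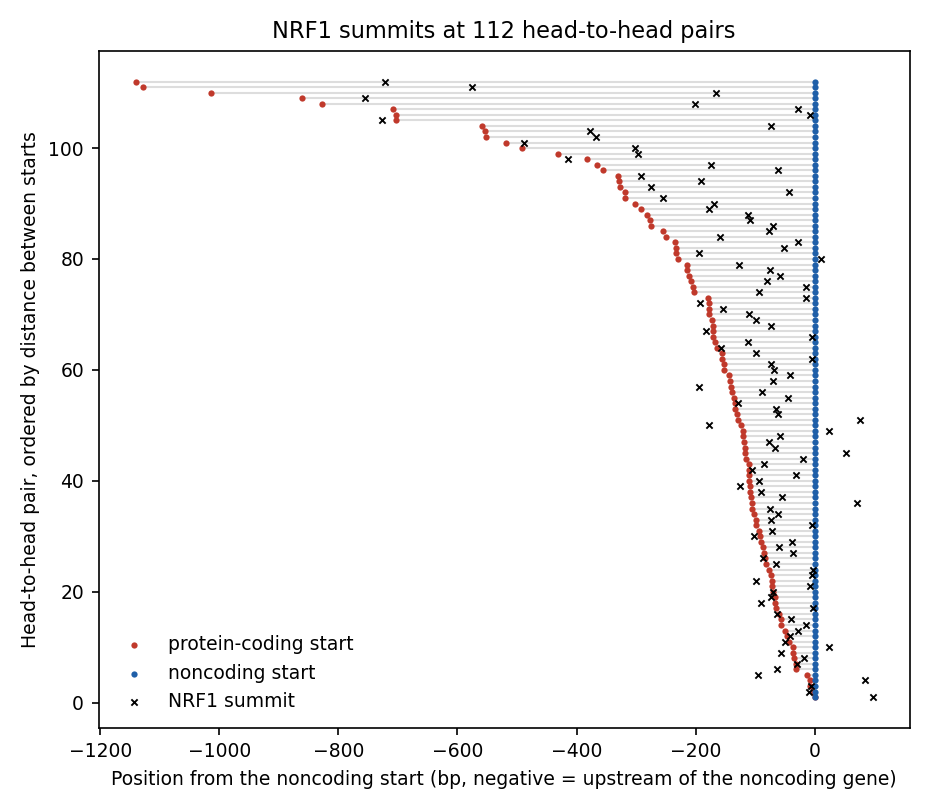
Positions of the noncoding start (blue, at 0), the protein-coding start (red) and the NRF1 summit (black cross) in bp along the strand of the noncoding gene, 1 row for each of 112 head-to-head pairs ordered by the distance between starts. The summit lay inside the gap between the starts in 85 pairs, and the rule kept every summit within 100 bp of that gap.

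The 10 strongest shared peaks covered 8 head-to-head lncRNA genes, 1 overlapping lncRNA gene and 1 microRNA. 4930480K23Rik, head to head with Chmp7 (a membrane-remodelling ESCRT protein), had the highest fold enrichment of all members, 34.1, with its starts 214 bp apart and the summit 75 bp upstream of the noncoding one. Gm15627 beside Castor2 (a protein of the mTOR pathway) followed at 33.7. Gm15506 beside Thap12 reached 32.9, with 3 motif copies, 1 of them perfect. Fold enrichment here is the authors' ratio of the signal at the summit to the control.

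Next in order came 9330133O14Rik beside Mvd (an enzyme of cholesterol synthesis) at 30.7, Gm4890 beside Mmaa (a mitochondrial protein of vitamin B12 handling) at 27.2 and 2900093K20Rik beside Oser1 at 26.9. Gm27011, which overlaps Banp (a protein that binds CpG-rich promoters) on the opposite strand, had 26.3, with the summit inside both genes, 94 bp after the noncoding and 59 bp after the protein-coding start. Mir8098 in Wdfy2 had 25.8, 2900009J06Rik beside Ccnt2 (a cyclin of the elongation factor P-TEFb) 25.03 and 1110006O24Rik beside Rab35 (a GTPase of endosomal recycling) 23.6. All of these 10 peaks held a motif copy, as did 67.4% of all shared peaks. The 10 were picked for high fold enrichment, and shared peaks with a copy had the higher median (14.36 against 8.872).

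Further pairs, chosen after their values were seen, showed how wide the range was. Gm7467 beside Clock (a core circadian factor) had a fold enrichment of 22.5 with 3 motif copies. 5430402O13Rik beside Cycs had 18.8, with a gap of only 74 bp and the summit 5 bp from the noncoding start, and Fmr1os beside Fmr1 had 15.3. F830010H11Rik beside Ezh2 (a histone methyltransferase of the Polycomb system) had 7.23. The weakest shared peak served Gm32031 beside Spty2d1, at 4.44. Thus pairs of the same layout spanned nearly the whole range of the list of members.

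Some partners with a known role in mitochondria were also picked out after the pairs were seen. No list of such genes was fixed and their number among the 147 partners was not counted, so they are single examples. Besides Mmaa and Cycs, these were Cmc1 beside Gm17399 at 20.7 and Isca1, which assembles iron-sulfur clusters, beside Etohd2 at 19.01. Atad3a, an ATPase of the inner membrane, had 10.9 beside Atad3aos. Both copies of the protein import factor Grpel were head to head with an lncRNA gene under a peak, Grpel2 with 1500015A07Rik at 8.87 and Grpel1 with 2210406O10Rik at 7.51. The ribosomal genes Mrps26 and Mrps21 had 8.87 and 5.97, and in each pair the starts were only 8 bp apart.

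The 10 lncRNA pairs that were not head to head had peaks from 7.60 to 26.3. The overlapping ones besides Gm27011 were Gm34917 with Enpp4 (12.2), Tnfsf13os with Senp3 (9.55), Gm15860 with Bcl7a (9.20) and 4930506C21Rik with Sft2d1 (8.26). On the same strand, Gm44505 with Zfp91 (20.99), Gm28043 with Rnf8 (14.7) and Gm48551 with Dohh (8.53) shared their annotated start with the protein-coding gene. Noncoding and coding transcripts from such a start cannot be told apart by a peak. At Gm44505 another annotated protein-coding start lay nearer the summit, which was 26 bp after it and 96 bp before the shared start. A630026N12Rik started 65 bp from Gabpb1, a subunit of another activator of respiratory genes, and had 9.65, and Gm41410 had 7.60.

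Of 181 noncoding genes named as opposite-strand transcripts, 10 were members (5.52%, 3.03 to 9.87%), near the 3.84% of all noncoding genes. Zfp652os (17.2), Fmr1os (15.3), Kif16bos (12.04) and Atad3aos (10.9) had the strongest peaks. The others were Tnfsf13os, Rap1gapos (9.03), Dgkeos (8.62), Bloc1s6os (6.61), Rbm3os (6.26) and Med9os (4.96). The name did not fix the layout: the Rap1gapos starts were 861 bp apart and those of Dgkeos 3 bp.

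The share of lncRNA genes that had a peak differed by layout. For starts head to head within 1000 bp, the upstream window of the lncRNA gene takes in the protein-coding start. A summit at that start is thus counted for both genes, and how much of the difference comes from this was not tested. Of 560 lncRNA genes with a protein-coding start head to head within 1000 bp, 117 had one (20.9%, interval 17.7 to 24.5%). Of 258 with such a start in another arrangement, 18 had one (6.98%, 4.46 to 10.8%), and of 2500 without a protein-coding start within 1000 bp, 32 (1.28%, 0.908 to 1.8%). Base composition differed along with the layout. A start was called CpG-rich where GC was at least 50% and the ratio of observed to expected CpG at least 0.6 within 200 bp of it. With a CpG-rich start, 18.9% of 814 lncRNA genes (16.4 to 21.8%) and 23.1% of 11553 protein-coding genes (22.3 to 23.9%) had a peak, and without one 0.519% of 2504 (0.304 to 0.886%) and 1.44% of 9447 (1.22 to 1.7%).

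Within CpG-rich starts the order by layout was partly kept. The share was 26.0% of 415 head-to-head lncRNA genes (22.0 to 30.5%), 10.6% of 161 in another arrangement (6.7 to 16.3%) and 12.2% of 238 with no protein-coding start near (8.62 to 17.0%). The last pair of intervals overlapped almost fully and the head-to-head interval lay above both, but intervals cover counting error over genes only. Seen from the other side, 27.3% of 461 CpG-rich protein-coding genes with an lncRNA gene head to head had a peak (23.5 to 31.6%), against 22.9% of 11092 without one (22.1 to 23.7%), and these intervals met at their ends. Having a peak is what the rule used, and the window favours head-to-head pairs, so these shares were not tested. The place of their intervals is no test of layout either.

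The 51 peaks in a noncoding promoter only were the ones in which no known protein-coding start was within the window. Of their summits 32 were outside protein-coding genes, 9 in an intron, 5 in an untranslated exon and 5 in a coding exon. A closer look at their neighbours divided them: 16 lay 101 to 1000 bp after a protein-coding start, that is, just downstream of the window. The other 35 were over 1000 bp from all such starts, 21 of them over 10000 bp. The motif was found at 9 of the 16 and at 15 of the 21, against 36 of all 51. Predicted transcripts would put 4 of the 51 in a protein-coding promoter.

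B330016D10Rik, a single-exon lncRNA gene, carried the strongest of these peaks (chr4:141545832-141546379), with a fold enrichment of 25.98, a −log10 q of 90.6 and 2 motif copies. Its summit was 190 bp upstream of its start and 7375 bp upstream of Spen (-7375 bp), the nearest protein-coding start. Gm38882 had 22.5, with its summit 86 bp upstream of its start and 16666 bp from the start of Zfp239. In both genes the peak was thus far from protein-coding starts and close to the noncoding one.

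Gm14966 (20.6) and Gm20337 (18.4) were of the other kind. Their summits lay 845 and 753 bp upstream of the noncoding starts (-845 and -753 bp) and in the first part of Sf1 and Srsf5, splicing factor genes, 865 and 653 bp after their known starts. The Gm14966 peak also lay in a predicted Sf1 promoter. 5730405O15Rik on X had 19.01, with 2 motif copies and 29745 bp to Usp9x, and 5830454E08Rik had 18.2, with the summit 105 bp before its start.

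Zfp652os had 17.2, with a perfect palindrome, a summit 74 bp inside the gene and 36387 bp to the start of Zfp652. 1700026J14Rik had 16.8 and also a perfect palindrome, but its summit was 102 bp after the start of Atp6v0e2 (a proton pump subunit), just beyond the window, and 197 bp upstream of its own start. Snhg3 and the snoRNA gene Snora73a, which lies in an intron of Snhg3, shared 1 peak at 17.3. Chaserr, an lncRNA gene that lies upstream of the chromatin remodeller gene Chd2, was picked after its values were seen and had 13.1, with a motif copy and the summit 165 bp upstream of its start, 16814 bp from Chd2.

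**Figure D3:**
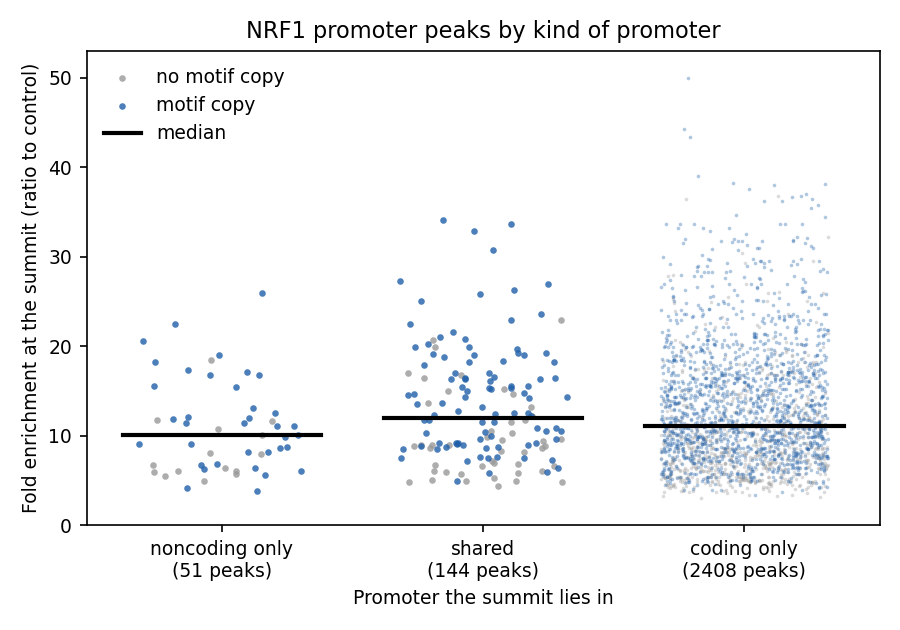
Fold enrichment at the summit (y axis, the authors' ratio to control) of the 51 noncoding-only, 144 shared and 2408 coding-only promoter peaks (x axis), blue where a motif copy lay within 100 bp of the summit and grey where none did, with a line at the median. The medians were 10.1, 12.0 and 11.1, and the 3 ranges overlap widely.

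Member peaks were of ordinary strength for promoter peaks. Over all members the median fold enrichment was 11.45 (quartiles 8.21 and 16.46, extremes 3.802 and 34.06). Noncoding-only peaks had a median of 10.07 (quartiles 6.581 and 12.8), shared peaks 12.0 (8.685 and 16.57) and coding-only peaks 11.1 (7.872 and 16.33). The strongest coding-only peak reached 49.95, above every member. Peaks with a motif copy had higher medians than peaks without, at 11.25 against 6.727 in the noncoding-only, 14.36 against 8.872 in the shared and 12.89 against 8.582 in the coding-only class. The lowest −log10 q of a member peak was 2.085.

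Sequence was not part of the rule, so it was tested. The motif, a 10-base palindrome that reads the same on both strands, was searched within 100 bp of the summit with at most 1 mismatch. It was found at 36 of 51 noncoding-only peaks (70.6%, 57.0 to 81.3%), 97 of 144 shared peaks (67.4%, 59.3 to 74.5%) and 1584 of 2408 coding-only peaks (65.8%, 63.9 to 67.6%). The odds ratio against coding-only peaks was 1.25 for noncoding-only peaks (95% interval 0.662 to 2.47, two-sided Fisher's exact test p = 0.552, adjusted p = 0.719) and 1.07 for shared peaks (0.742 to 1.57, p = 0.719, adjusted p = 0.719). No difference was detected, but the odds ratios moved with the number of mismatches allowed. With at most 2 mismatches, at which 98.0%, 95.1% and 90.7% of the 3 classes held a copy, they were 5.153 (two-sided Fisher's exact test p = 0.0832) and 2.017 (p = 0.0730), and with none 0.497 (p = 0.363) and 0.7229 (p = 0.339).

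For comparison, 201-bp windows centred on the starts of noncoding genes without a promoter peak held the motif in 60 of 5198 cases (1.15%), and in 10 of 699 CpG-rich lncRNA starts (1.43%, 0.779 to 2.61%) and 37 of 2656 other lncRNA starts (1.39%, 1.01 to 1.91%). All 195 member peaks together held it in 133 cases, or 68.2% (61.4 to 74.3%). The former windows are centred on starts chosen for lacking a peak and the latter on summits. The contrast is thus partly fixed by this choice and was not tested. The copies at member peaks took 11 forms. The commonest were GCGCAGGCGC at 46 member peaks (23.6%) and GCGCACGCGC at 34 (17.4%), each with 1 mismatch at the centre of the palindrome, while the perfect palindrome was the best copy at 15 (7.69%). At coding-only peaks these shares were 21.1%, 13.6% and 11.2%. The perfect form was also the rarer of the 3 there.

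The 15 member peaks with a perfect palindrome had a median fold enrichment of 15.48, and those with the 2 commonest forms 11.84 and 14.31 in the same order as above. In the noncoding-only class they served Zfp652os (17.2), 1700026J14Rik (16.8) and Kif16bos (12.04). In the shared class they ran from 7.48 at Gm9828 beside Btf3 to 32.9 at Gm15506, and included 1810041H14Rik beside Ubac2 (21.6), Gm51663 beside Kifap3 (17.0), 4831440E17Rik beside Kmt2c (16.1) and 1600020E01Rik beside Pcbp1 (15.5). Of the 10 strongest shared peaks, that of Gm15506 alone had the perfect form.

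**Figure D4:**
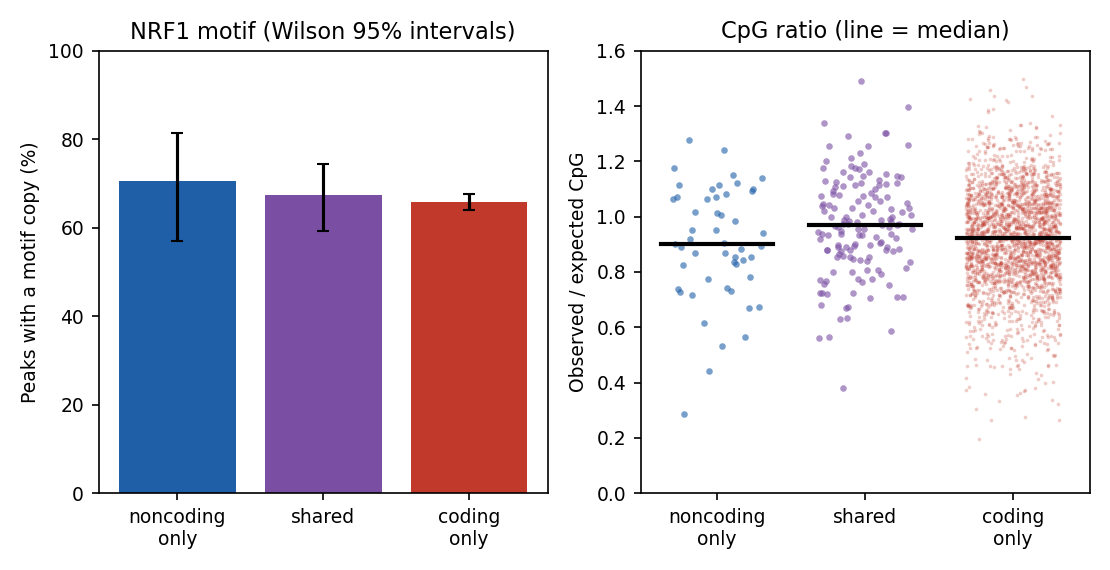
Left, percent of peaks with a motif copy within 100 bp of the summit (y axis) in the noncoding-only, shared and coding-only classes, with Wilson 95% intervals. Right, observed to expected CpG in 201 bp around each summit, 1 point for each peak with a line at the median (0.9004, 0.9685 and 0.9233).

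CpG content separated the classes little. The median ratio of observed to expected CpG within 100 bp of the summit was 0.9004 at noncoding-only, 0.9685 at shared and 0.9233 at coding-only peaks. The difference of medians from coding-only peaks was -0.023 for noncoding-only peaks (two-sided permutation test with 100000 resamples, p = 0.485, adjusted p = 0.719) and 0.0452 for shared peaks (p = 0.0245, adjusted p = 0.098). After Benjamini-Hochberg adjustment over the 4 tests of sequence, none was under 0.05, and the shared difference was lost even unadjusted under 5 alternatives. Median GC was 62.7%, 68.2% and 66.7% in the same order.

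Of 20 listed snoRNA host genes, 5 carried a promoter peak (25%, Wilson 95% interval 11.2 to 46.9%), against 3.84% of all noncoding genes and 18.9% of lncRNA genes with a CpG-rich start, a share inside that interval. Snhg1, head to head with Slc3a2, had a fold enrichment of 19.9 and no motif copy within 100 bp of the summit. Snhg3 had 17.3, Zfas1 8.04, Snhg16 6.44 and Snhg9, head to head with the ribosomal protein gene Rps2, 4.89. The starts of Snhg3, Snhg16 and Snhg9 were 39, 68 and 5 bp from the summit (-39, -68 and -5 bp), so the peaks sat on the host promoters. The Zfas1 summit lay 181 bp before its start and 262 bp after that of Znfx1, on the opposite strand.

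Small RNA members had their summits away from their own starts. Over 25 pairs of a peak and a small RNA gene the median summit position was 407 bp upstream (-407 bp), and 4 summits were within 100 bp of the small RNA, against 106 of 168 for lncRNA pairs. Of the 24 genes, 16 lie inside a host gene on the same strand, which gave 17 pairs. In 16 of these the summit was in the promoter of the host, and in 11 it was within 100 bp of the start of the host.

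**Figure D5:**
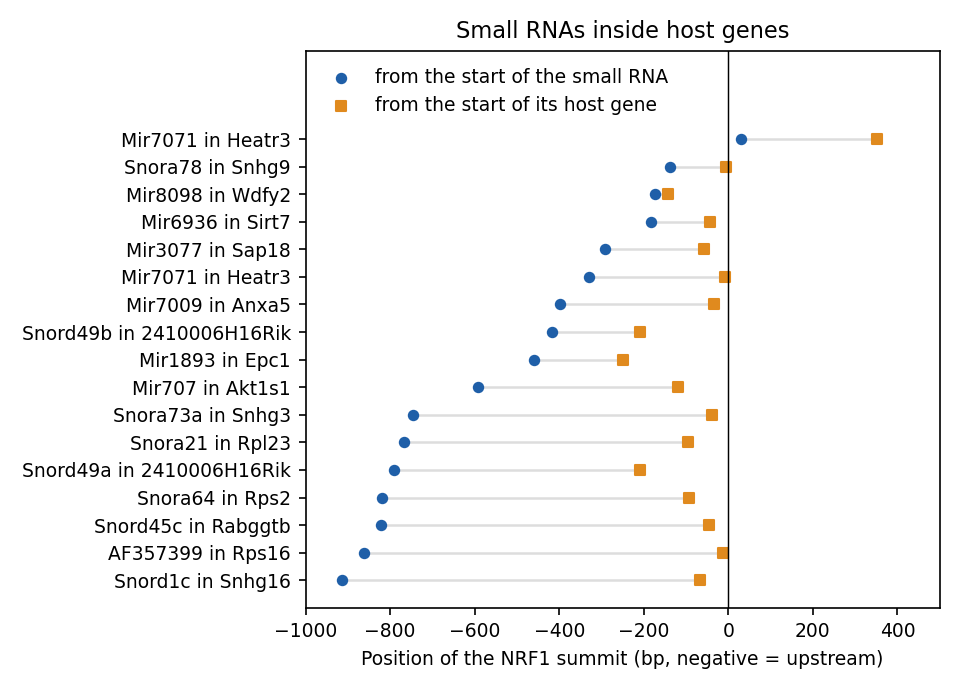
Position of the NRF1 summit (x axis, bp) from the start of the small RNA (blue circles) and from the start of its host gene (orange squares) for the 17 pairs with a host on the same strand (y axis). The squares gather near 0 and the circles spread down to -913 bp. The host start nearest the summit was used, so the place of the squares is partly set by that choice.

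The snoRNA genes show the pattern best. Snora73a in Snhg3 lay 746 bp downstream of the summit (-746 bp), Snord1c in Snhg16 913 bp (-913 bp) and AF357399 in Rps16 863 bp (-863 bp), while the same summits were 39, 68 and 12 bp from the host starts (-39, -68 and -12 bp). Snora21 in Rpl23, Snord45c in Rabggtb and Snora64 in Rps2 were of the same kind, with fold enrichments of 8.24, 8.74 and 4.89. Snora78 in Snhg9 used the Rps2 peak from the other side. Snord49a and Snord49b shared 1 peak of 5.94 near the start of 2410006H16Rik, and the remaining member of the snoRNA and Cajal body RNA list, Scarna17, had a peak of 22.9 whose summit also lay in the promoter of Acaa2, a mitochondrial thiolase. In all, 9 of the 124 genes of that list were members (7.26%, 3.87 to 13.2%), against 3.84% (3.35 to 4.4%) of all noncoding genes, and these intervals overlapped.

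The 8 strongest of the 14 microRNA members were Mir8098 (25.8), Mir7009 in Anxa5 (22.9), Mir1934 (20.8), Mir8112 (19.7), Mir8111 (16.8), Mir6936 in Sirt7 (16.5), Mir3077 in Sap18 (13.7) and Mir7071 in Heatr3. All but Mir8111 had a shared peak. Mir7071 had 2 peaks in reach, of 11.6 at the Heatr3 start and 9.82 further downstream. RefSeq gave mature sequences for 13 of the 14, and no 2 of their 20 mature forms shared a seed. Those of the 3 strongest and of let-7i, which was chosen after its values were seen as the best-known member, are printed with the seed, bases 2 to 8, in capitals.
mmu-miR-8098, chr14:62837797-62837817 (+): gCUAUGGUcgcuggcucccaa
mmu-miR-7009-5p, chr3:36475498-36475519 (-): uUGGGGUCaggggaccagagcu
mmu-miR-7009-3p, chr3:36475461-36475481 (-): uCUUUUCCccucucccugcag
mmu-miR-1934-5p, chr11:69663055-69663077 (+): uCUGGUCCccugcuucguccucu
mmu-miR-1934-3p, chr11:69663092-69663113 (+): aGGAUGACgguggggcugguga
mmu-let-7i-5p, chr10:122985698-122985719 (-): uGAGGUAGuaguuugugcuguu
mmu-let-7i-3p, chr10:122985642-122985663 (-): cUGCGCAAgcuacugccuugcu
The Mirlet7i peak was weak, at 6.08, with its summit 772 bp upstream of the gene (-772 bp) and no motif copy. The nearest protein-coding start, that of Mon2, was 90009 bp away.

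Of the structured RNA genes 3 of 24 were members (12.5%, 4.34 to 31.0%), against 3.84% of all noncoding genes. Rmrp had 11.7 and shared its peak with Ccdc107, whose start was 10 bp from the summit (-10 bp) whereas that of Rmrp was 296 bp away (-296 bp). Rn7s1 had 9.65 and shared its peak with Rps29. Vaultrc5, a vault RNA that RefSeq files under lncRNA, had 6.44 in a noncoding promoter only, with the summit 20 bp before its start (-20 bp).

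The 6 transcribed pseudogenes had peaks from 4.84 to 18.98. Gm15760 beside Abcf3 had 18.98, Gm2011 beside Mfsd8 17.9 and LOC665004 beside Nagk 16.4, and 2700099C18Rik beside Mettl4 had 4.84. Gm6787 (8.62) and Magef1 (5.52) had noncoding-only peaks. The summits were within 100 bp of the annotated start in Gm15760, Gm6787, Magef1 and 2700099C18Rik. Only uniquely mapped reads were kept, so signal at a pseudogene that closely matches its parent gene would be lost from the list.

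None of the 32 well-known lncRNA genes and none of the 18 microRNA host genes of the lists was a member. For the former, a count of 0 of 32 gives an upper Wilson bound of 10.7%, which does not lie under the 3.84% of all noncoding genes. The nearest summit was looked up for the 81 genes without a promoter peak on these 2 lists and those of snoRNA hosts and structured RNAs. Of these genes, Malat1 and Ftx, the latter both a well-known lncRNA and a microRNA host gene, had a summit within 2000 bp of a start. Malat1, an abundant nuclear RNA, had a strong peak (fold enrichment 22.2, −log10 q 79.5) centred 1039 bp upstream of its start, just outside the window. Ftx, a gene of the X inactivation centre, had one of 23.0 at 1299 bp downstream of its start. The motif copy of the Malat1 peak lay in this stretch, on the strand of the gene.
Malat1, chr19:5803711-5803760 (-): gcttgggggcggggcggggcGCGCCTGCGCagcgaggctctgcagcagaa

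The window ends near these members and non-members. The farthest inside were 4930449E18Rik at -924 bp (fold enrichment 6.73) and Snord1c at -913 bp upstream, and Gm15420 at 98 bp (13.2) and Gm27011 at 94 bp (26.3) downstream. Just outside were Malat1 at -1039 bp and 2900052L18Rik at -1095 bp (11.7) upstream, and Gm6559 at 106 bp (5.72) and B230217O12Rik at 141 bp (5.72) downstream. Only 2 members had 2 promoter peaks. Besides Mir7071 this was 2700046G09Rik, head to head with Sgms1 (a sphingomyelin synthase) at a distance of 704 bp, where 1 summit (8.94) lay 23 bp inside Sgms1 and the other (8.71) 7 bp before the noncoding start (-7 bp).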

How the data were processed

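NRF1 ChIP-seq of wild-type skeletal muscle was analysed from 1 deposited list of 3226 peaks. As the methods of the study describe, the authors mapped single-end 50 bp reads to mm10 with Bowtie 1.1.2, kept uniquely mapped reads and called peaks with MACS2 2.2.7.1 against input DNA. The methods name the broad option and an FDR limit, whereas the list holds narrow peaks with summits, the weakest at a −log10 q of 1.319, which misses that limit, so the call behind the list is not known in full. The list also holds more peaks than the NRF1 binding sites that the paper reports under its own limits. Unique mapping lowers signal in repeated sequence, which bears on small RNA families and pseudogenes. The authors' fold enrichment (a ratio to control) and summit were used, with q-values deposited on the −log10 scale. The deposited score column was used only to check the layout. Read depth is not given in the list, nor is it said if libraries were pooled.

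Starts came from known RefSeq transcripts of GRCm38.p6. They gave 5180 genes with noncoding (NR) and no coding (NM) transcripts on the 22 chromosomes with peaks. Promoters, classes, motif copies (at most 1 mismatch, copies not overlapping) and CpG ratios were computed in Python 3.11.15 with pandas 2.3.3, pysam 0.24.0 and scipy 1.17.1, with scripts tested on simulated data. Wilson 95% intervals cover counting error only. Tests used Fisher's exact test and a permutation test of medians (100000 resamples), two-sided, with 4 p-values adjusted by the Benjamini-Hochberg method. Peaks, not samples, are the units of these tests. Named genes were the 10 highest by fold enrichment in each class, up to 8 of each gene list, members with 2 peaks and the genes at either end of the window, and all other genes named were chosen after their values were seen. The members and lists were chosen with earlier results of these data known. Alternatives were stricter peaks, other windows, overlap, predicted or GENCODE M21 transcripts, no pseudogenes, lncRNA genes only, and other motif and CpG settings.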

Additional observations from a re-analysis of the deposited data

How the results depend on the processing

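Of 76 alternatives over 8 results, 56 kept direction, side of the threshold and, for counts, a size within 1.5 times the value reported (for the share of members with a shared peak, a value inside its interval). Within that tolerance the 2000 to 500 bp window still gave 246 member genes and 241 peaks, and predicted transcripts 69 noncoding-only peaks. The member genes numbered 363 and their peaks 354 with predicted transcripts, and 351 and 336 with GENCODE M21 transcripts, where noncoding-only peaks numbered 78. The share of members with a shared peak was 78.85% with promoters of 500 bp either side and 79.61% with predicted transcripts. The CpG difference of shared peaks was not under the unadjusted threshold with a 2000 to 500 bp window (0.0243), 500 bp either side (0.01869), any overlap (0.03667), predicted transcripts (0.02031) or GENCODE M21 (0.02302), and p over its alternatives ran up to 0.338. That of noncoding-only peaks turned to 0.02326 within 250 bp. The motif odds ratio turned below 1 for noncoding-only peaks with 500 bp either side (0.9693), no mismatch (0.497) and within 50 bp (0.847), and for shared peaks with the 2000 to 500 bp window (0.9425), predicted transcripts (0.923), no mismatch (0.7229) and lncRNA genes only (0.9863). With at most 2 mismatches it rose to 5.153 and 2.017. None of these changes of the odds ratio or reversals had a p under 0.05, and the causes were not tested. GENCODE M21 and lncRNA genes only were chosen after seeing the data. Leaving out a replicate was not possible with 1 peak list, and depth is unknown, so absence of a peak is not absence of binding. No paired analysis was possible because both libraries are in 1 group and 1 list was deposited.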

Other observations

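A perfect palindrome anywhere in the 1101-bp promoter was rare among noncoding genes, at 27 of 5180 (0.521%, Wilson 95% interval 0.358 to 0.757%), against 367 of 21000 protein-coding genes (1.75%, 1.58 to 1.93%). Where it was present, 17 of 27 noncoding genes (63.0%, 44.2 to 78.5%) and 328 of 367 protein-coding genes (89.4%, 85.8 to 92.1%) had a promoter peak in the list. The 10 noncoding genes with a perfect palindrome and no promoter peak included the lncRNA genes Halr1, which lies by the Hoxa cluster, and Kis2, and the microRNA gene Mir7034, all named after their values were seen.

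Gene structure differed little between lncRNA members and lncRNA genes at large, except for single-exon genes. The median spliced length was 1353 bases in members and 1246 in all lncRNA genes, and the median number of exons was 3 in both. Single-exon genes made up 31 of the 167 lncRNA members, or 18.6%, against 5.94% of all lncRNA genes. No test was made of these values, which were looked at after the members were known.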
